A study of Mus musculus with 7 samples.

Results

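The hedgehog and PTHrP loop of the growth plate was read here through 9 genes, taken as the rows of the deposited count table whose gene name was exactly Ihh, Pthlh, Pth1r, Ptch1, Smo, Gli1, Gli2, Gli3 or Hhip. Each name matched 1 row, so that the set held 9 of the 55401 genes in the table. The study followed post-traumatic osteoarthritis of the mouse knee induced by DMM, a surgical destabilization of the medial meniscus that loads the joint abnormally. RNA-Seq compared WT mice with Trpc1-/- mice, which lack the calcium-permeable channel TRPC1. All animals were males on the C57BL/6J background, had DMM of the right knee at 10 weeks of age and were collected 2 weeks later, so that injury was shared by both groups and no sham-operated knee was analysed here. The Trpc1-/- animals carry the germline allele Trpc1tm1Lbi, in which exon 8 is missing in every cell, and the controls came from the same colony. Each sample pooled 2 to 3 mice, and by the labels 4 samples were WT and 3 were Trpc1-/-, whereas the study's methods give the group sizes the other way round. The labels were used. The tissue is labelled as knee articular cartilage, with the femoral head and tibial plateau named as its source, while the study's methods list subchondral bone as well. The labels call the samples biological replicates.

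Indian hedgehog, encoded by Ihh, is secreted by prehypertrophic chondrocytes of the growth plate. It binds PTCH1, which releases the transducer SMO and lets GLI transcription factors switch on target genes, among them Ptch1, Gli1 and Hhip themselves. Hedgehog signalling also maintains Pthlh, which encodes PTHrP. PTHrP acts on chondrocytes through PTH1R, a receptor that raises cyclic AMP, and holds them back from hypertrophy, so that fewer cells make IHH and the loop closes. In articular cartilage PTHrP marks cells near the surface, and hedgehog activity is known to accompany hypertrophic change in osteoarthritis. PTH1R and hedgehog target genes are also expressed by osteoblasts and their precursors, so in tissue that contains bone these transcripts are not specific to cartilage.

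The genes lie on 6 chromosomes of GRCm38. By GENCODE M21, Ihh is at chr1:74945315-74951672, Gli2 at chr1:118834132-119053619, Pthlh at chr6:147252101-147264183, Smo at chr6:29735503-29761365, Hhip at chr8:79965851-80058006, Pth1r at chr9:110722085-110747145, Gli1 at chr10:127329882-127341974, and Ptch1 and Gli3 at chr13:63508328-63573598 and chr13:15463235-15730026. All are protein coding. Pth1r is on the chromosome of the deleted gene, 15 Mb from Trpc1. Exons of Pth1r, Gli1, Gli3 and Hhip overlap exons of a gene on the other strand, by 95 bases with Myl3, 62 with Arhgap9, 188 with Gm6556 and 175 with Gm27820. Gli1 also shares 265 bases with the antisense gene Gm47200. The libraries kept the strand of the RNA, and the alignment was set for it.

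Promoter sequences were taken from RefSeq on GRCm38.p6, each running from 250 bases before to 50 bases after a start site. Of the 9 genes, 8 matched, with 10 promoters between them, and Gli1 had no entry. They were searched on both strands for GACCACCCA, a GLI binding sequence, for its shorter core CCACCCA, and for TGACGTCA, the cyclic AMP response element, a motif added after the sequences had been seen. The longer GLI sequence was in 0 of the 10 promoters, against 0.253% of 32851 promoters of mouse genes, and the core was in 0 of the 10, against 9.3%. The core is part of the longer sequence, so these are not separate counts. TGACGTCA was in 1 of the 10, against 1.79%. It is palindromic and starts 75 bases before the start site of Hhip, at offset -75. The 250 bases upstream are shown for the ligand Ihh, for Smo, the gene of the set with the smallest p in edgeR's fit of all samples, and for Hhip, with the response element in capitals. In these 3 genes the RefSeq start lies within 6 bases of the GENCODE gene start. A match or its absence in this window describes these letters only.
Ihh, chr1:74951673-74951922, minus strand: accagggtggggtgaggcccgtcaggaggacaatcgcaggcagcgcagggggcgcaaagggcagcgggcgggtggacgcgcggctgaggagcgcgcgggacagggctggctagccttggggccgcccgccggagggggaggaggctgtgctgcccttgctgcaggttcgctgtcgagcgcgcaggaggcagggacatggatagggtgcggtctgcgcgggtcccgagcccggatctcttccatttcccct
Smo, chr6:29735247-29735496, plus strand: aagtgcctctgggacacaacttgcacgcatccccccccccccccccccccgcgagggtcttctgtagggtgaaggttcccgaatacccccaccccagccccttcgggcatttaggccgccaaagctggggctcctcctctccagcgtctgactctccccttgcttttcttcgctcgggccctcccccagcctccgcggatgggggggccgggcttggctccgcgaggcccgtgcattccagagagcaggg
Hhip, chr8:80058009-80058258, minus strand: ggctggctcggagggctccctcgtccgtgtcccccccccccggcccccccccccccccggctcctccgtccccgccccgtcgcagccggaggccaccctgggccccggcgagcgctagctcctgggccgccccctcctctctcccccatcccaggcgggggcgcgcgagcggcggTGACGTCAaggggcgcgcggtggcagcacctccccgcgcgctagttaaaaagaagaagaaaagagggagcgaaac

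Counts on genes summed to between 52142451 and 118254070 per sample, and 16429 genes above 1 CPM (counts relative to the library total) in 2 or more samples were tested, among them all 9 genes of the loop. The limit of 3 counts, taken as the smallest signal, lay between 0.0244 and 0.0632 CPM, below every value of the set. WT replicate 1 was the shallowest library and stood apart: its correlation with the rest averaged 0.947, where each of the others reached at least 0.973, and it had 19.6% of its counts on the mitochondrial ribosomal RNA mt-Rnr2, where the others had between 12.3% and 15.4%. It also held the highest level of skeletal muscle markers. Results that rest on it are therefore given without it as well. Trpc1, the targeted gene, measured 4.83, 4.55, 4.77 and 4.33 CPM in WT replicates 1 to 4 and 3.35, 3.79 and 3.04 CPM in Trpc1-/- replicates 1 to 3. The groups did not overlap. The table counts the whole transcript, of which exon 8 is a part, so these values are no check of the deletion itself. Cartilage genes were abundant in all samples, with 2980 ± 248 CPM (SD, n = 4) of Col2a1, the main cartilage collagen, and 526 ± 141 CPM of Prg4, which encodes lubricin of the joint surface, in WT. Bone and marrow were present as well, with 8650 ± 2880 CPM of Col1a1 and 2620 ± 1220 CPM of the neutrophil gene S100a8 in the same samples, so the tissue was not cartilage alone.

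To compare levels between genes, counts were divided by exon length and scaled to the same total in each sample (TPM). The loop was dominated by a receptor. Pth1r was highest, at 25.1 ± 6.14 TPM (SD over all 7 samples), followed by Smo at 8.27 ± 1.91 TPM and Ptch1 at 4.57 ± 1.06 TPM. Hhip, a membrane-bound decoy that captures hedgehog ligand, had 2.75 ± 0.650 TPM. The ligand Ihh came next, at 1.80 ± 0.939 TPM. The 3 GLI factors lay close to it, with Gli3 at 1.75 ± 0.341, Gli1 at 1.55 ± 0.565 and Gli2 at 1.12 ± 0.287 TPM. The ligand Pthlh was lowest, at 0.979 ± 0.247 TPM. Of neighbours in this order, only Pth1r, between 15.6 and 31.1 TPM, and Smo, between 4.97 and 10.9 TPM, had ranges that did not overlap. Within a sample, Pth1r exceeded Smo, Smo exceeded Ptch1 and Ptch1 exceeded Hhip in 7 of 7 samples, whereas Ihh exceeded Gli3 in 3 of 7. From Hhip down to Pthlh no gene exceeded its next neighbour in every sample. Among all tested genes by TPM, Pth1r stood at percentile 89.3, Smo at 64.7 and Pthlh at 13.0, so that both ligands were rarer transcripts than the receptors they signal through.

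**Figure D1:**
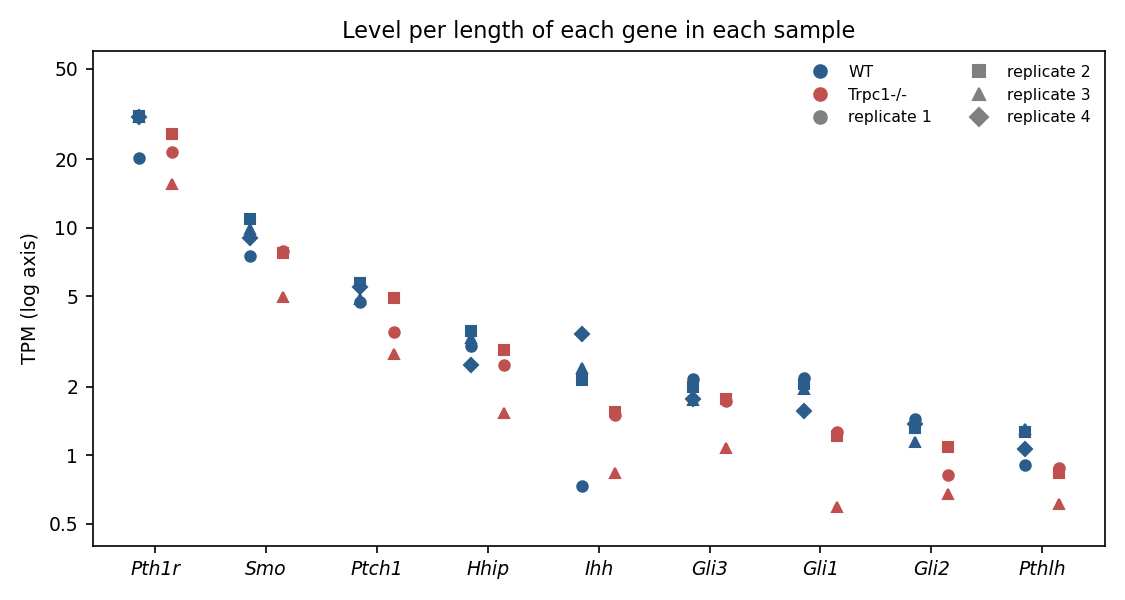
Level per exon length (TPM, log axis) of each gene in each sample, with genes ordered by their mean and 1 point per sample, coloured by genotype and shaped by replicate. Pth1r lies between 15.6 and 31.1 TPM and apart from all others, while Ihh, the GLI genes and Pthlh form a band in which the samples of neighbouring genes overlap, and the lowest Ihh value, 0.731 TPM, is that of WT replicate 1.

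The question of the design was whether loss of TRPC1 changed expression after DMM. For the loop, all 9 genes had a lower mean in the Trpc1-/- samples, where 51.9% of all tested genes did, with log2 fold changes (logFC, Trpc1-/- minus WT) between -0.90 and -0.30 and a median of -0.40. The median over all tested genes was -0.01. The largest difference was that of the hedgehog target Gli1, at a fold of 0.535, and the smallest that of Gli3, at 0.810. None passed the test: 0 of the 9 had an adjusted p under 0.05 with edgeR's quasi-likelihood test, as did 0.00% of the tested genes, and 0 of the 9 with DESeq2, which called 294 genes, or 1.79%. At an unadjusted p under 0.05 by edgeR, 4 of the 9 genes were lower (Pthlh, Pth1r, Smo and Gli1), against 5.49% of all tested genes in that direction. In 3 of the 9 (Pthlh, Smo and Gli1) every Trpc1-/- sample lay below every WT sample in CPM. The same held for 6.42% of tested genes. Which genes these were depended on the unit. In TPM, Smo overlapped, with 7.52 in WT replicate 1 and 7.91 in Trpc1-/- replicate 1, and Gli2 did not. The 9 genes were measured in the same 7 libraries, so they are not 9 separate observations of the genotype. In these bulk samples fewer cells of a type and less RNA per cell cannot be told apart.

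Ihh was the most variable of the set. In CPM scaled by TMM, the unit of all levels that follow, it measured 2.30, 4.45, 5.20 and 7.65 in WT replicates 1 to 4 and 3.14, 3.90 and 2.54 in Trpc1-/- replicates 1 to 3. The lowest value of all was in WT replicate 1, which had 109 Ihh counts, and the other 3 WT samples were above every Trpc1-/- sample. The WT mean was 4.90 ± 2.21 CPM (SD, n = 4) and the Trpc1-/- mean 3.19 ± 0.683 CPM (SD, n = 3), which made the logFC -0.62 (SE 0.37, 95% interval from -1.48 to 0.23, edgeR adjusted p = 0.571). The WT samples alone spanned 3.33-fold, more than the difference between the groups. Without WT replicate 1 the logFC was -0.85 (SE 0.24, edgeR adjusted p = 0.162), and the groups no longer overlapped. Several marker lists also separated the groups then, in mean log2 CPM. Skeletal muscle markers lay between 2.28 and 4.47 in WT and between 4.85 and 6.55 in Trpc1-/- samples. Adipocyte markers lay between 3.96 and 4.46 and between 4.62 and 5.16. Chondrocyte markers were lower in Trpc1-/- samples, at 6.69 to 7.44 against 7.54 to 7.60. Their part in the Ihh values was not tested.

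Pthlh showed the opposite kind of data, low counts with little spread. It measured 1.52, 1.40, 1.49 and 1.26 CPM in WT and 0.972, 1.12 and 0.982 CPM in Trpc1-/- samples, from 72 to 183 counts per library. All 3 Trpc1-/- samples were below the lowest WT sample. The means of 1.42 ± 0.116 and 1.02 ± 0.0831 CPM gave a logFC of -0.47 (SE 0.17, 95% interval from -0.86 to -0.07, edgeR adjusted p = 0.455). The ratio of the loop's ligands, Ihh to Pthlh per length, did not separate the groups: on the log2 scale it was -0.31, 0.75, 0.89 and 1.69 in WT and 0.78, 0.89 and 0.46 in Trpc1-/- samples. Only in WT replicate 1 was Pthlh the more abundant.

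Pth1r, the receptor that answers PTHrP, was nearly constant in WT, at 60.9, 62.2, 63.4 and 66.3 CPM. Trpc1-/- replicates 1 and 3 had 43.3 and 45.6 CPM, whereas replicate 2, at 62.0 CPM, lay within the WT range. The logFC was -0.33 (SE 0.13, 95% interval from -0.63 to -0.04, edgeR adjusted p = 0.474). Without Trpc1-/- replicate 2 it was -0.52 (SE 0.08, edgeR adjusted p = 0.282) and the groups did not overlap. That sample was the highest Trpc1-/- sample in CPM for each gene of the set. Leaving it out therefore lowers the Trpc1-/- mean by the choice of sample.

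Ptch1 is both the receptor of IHH and a target gene of the pathway. Its levels were 69.1, 55.3, 48.6 and 57.5 CPM in WT and 33.8, 57.5 and 39.6 CPM in Trpc1-/- samples. Trpc1-/- replicate 2 was level with WT replicate 4, and the other Trpc1-/- samples were below all WT samples. The logFC was -0.40 (SE 0.19, 95% interval from -0.85 to 0.05, edgeR adjusted p = 0.525). Smo, which carries the signal past PTCH1, had the smallest p of the set in edgeR's fit of all samples, while DESeq2 gave Gli1 a smaller one. It measured 43.6, 41.9, 39.1 and 37.3 CPM in WT and 30.5, 35.8 and 27.9 CPM in Trpc1-/- samples, with the highest Trpc1-/- sample just under the lowest WT sample. The means of 40.5 ± 2.80 and 31.4 ± 4.01 CPM differed by a logFC of -0.37 (SE 0.10, 95% interval from -0.60 to -0.13, edgeR unadjusted p = 0.00743, adjusted p = 0.401). DESeq2 gave Smo an adjusted p of 0.0815. The ratio of Ptch1 to Smo overlapped between the groups, with means of 0.564 ± 0.0659 in WT and 0.546 ± 0.100 in Trpc1-/- samples.

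**Figure D2:**
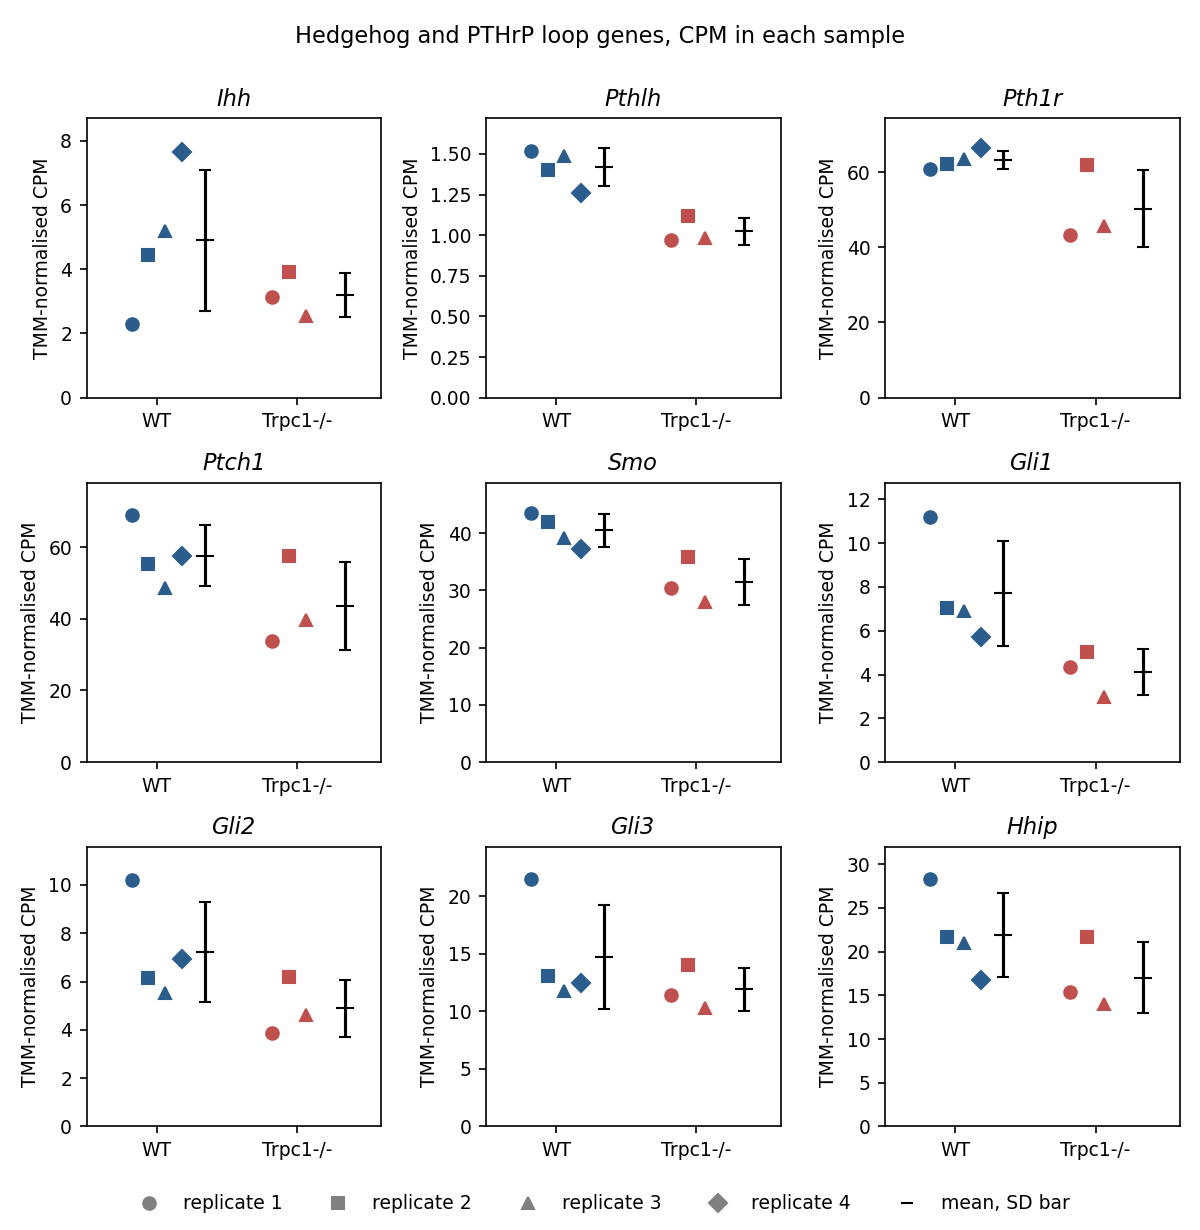
TMM-normalised CPM of each gene in each sample on axes that start at 0, with WT on the left, Trpc1-/- on the right, marker shapes for replicate numbers, and bars for the mean and SD of each group. Pthlh, Smo and Gli1 do not overlap between the genotypes, and the Trpc1-/- square, replicate 2, is the highest of its group in all 9 panels.

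Among the transcription factors, Gli1, an activator whose own transcription reads out hedgehog activity, had 11.2, 7.04, 6.90 and 5.73 CPM in WT and 4.34, 5.04 and 2.97 CPM in Trpc1-/- samples. The groups did not overlap, although WT replicate 4 was only just above Trpc1-/- replicate 2. The means of 7.72 ± 2.40 and 4.11 ± 1.06 CPM gave the largest logFC of the set, -0.90 (SE 0.27, 95% interval from -1.53 to -0.27, edgeR unadjusted p = 0.0111, adjusted p = 0.408, DESeq2 adjusted p = 0.0680). Without WT replicate 1 it was -0.67 (SE 0.20), again without overlap. Gli2, the main activator of the initial response, had 10.2, 6.16, 5.54 and 6.95 CPM in WT and 3.86, 6.18 and 4.63 CPM in Trpc1-/- samples. WT replicate 1 was high and Trpc1-/- replicate 2 lay among the WT values. Its logFC was -0.56 (SE 0.25, 95% interval from -1.14 to 0.02, edgeR adjusted p = 0.508). Gli3, which acts mostly as a repressor in the absence of ligand, had 21.5, 13.1, 11.8 and 12.5 CPM in WT and 11.4, 14.0 and 10.3 CPM in Trpc1-/- samples. The difference of Gli3 rested on WT replicate 1: the logFC was -0.30 (SE 0.23, 95% interval from -0.83 to 0.22, edgeR adjusted p = 0.636) with that sample and -0.07 (SE 0.12) without it.

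Of the ratios computed, Gli1 to Gli3 and Gli2 to Gli3 did not overlap between the groups, and the others did. As levels in CPM, Gli2 and Gli3 overlapped and Gli1 did not. In TPM, the unit of these ratios, Gli2 did not overlap either. It lay between 1.14 and 1.44 TPM in WT and between 0.675 and 1.09 TPM in Trpc1-/- samples. Among single tested genes 13.6% did not overlap in either direction, and no such share was computed for ratios. Gli1 to Gli3 per length was 1.00, 1.03, 1.13 and 0.877 in WT and 0.731, 0.691 and 0.554 in Trpc1-/- samples. WT replicate 1, the highest WT sample for each GLI gene, lay within the other WT samples in this ratio. The means were 1.01 ± 0.103 (SD, n = 4) and 0.659 ± 0.0930 (SD, n = 3), and the groups did not overlap. Gli2 to Gli3 was 0.665, 0.657, 0.656 and 0.774 in WT and 0.474, 0.616 and 0.629 in Trpc1-/- samples, also without overlap. Gli1 to Ptch1, a ratio of target genes, overlapped, at 0.377 ± 0.0748 and 0.275 ± 0.0793. These ratios come from genes chosen with results known and were not tested.

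Hhip, a target gene that dampens signalling by binding the ligand, had 28.3, 21.7, 21.0 and 16.7 CPM in WT and 15.4, 21.7 and 14.0 CPM in Trpc1-/- samples. Trpc1-/- replicate 2 matched WT replicate 2, and the other Trpc1-/- samples were below all WT samples. Its logFC was -0.36 (SE 0.21, 95% interval from -0.85 to 0.12, edgeR adjusted p = 0.557). Hhip to Ptch1 per length was 0.596 ± 0.0973 in WT and 0.618 ± 0.0851 in Trpc1-/- samples, and the groups overlapped.

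Single libraries weighed on the set as a whole. In CPM, WT replicate 1 was the highest WT sample for 7 of the 9 genes, all but Ihh and Pth1r, for which it was the lowest. Trpc1-/- replicate 2 was the highest Trpc1-/- sample for 9 of 9. These ranks depend on the unit. In TPM, WT replicate 1 was the lowest WT sample for Pthlh (0.909), Ptch1 (4.73) and Smo (7.52) as well. Trpc1-/- replicate 1 was above replicate 2 in TPM for Pthlh, Smo and Gli1. Without WT replicate 1, edgeR gave 0 of the 9 an adjusted p under 0.05, where 0.140% of tested genes were lower at that threshold, and 5 of the 9 an unadjusted p under 0.05, against 8.38% of tested genes, and 5 did not overlap (Ihh, Pthlh, Pth1r, Smo and Gli1), against 11.4%. The logFC in that fit was -0.44 for Pthlh, -0.35 for Pth1r, -0.30 for Ptch1, -0.33 for Smo, -0.35 for Gli2 and -0.22 for Hhip. Without Trpc1-/- replicate 2, 7 of the 9 were under 0.05, against 5.97%, and 8 did not overlap, all but Ihh, against 13.8%. Leaving out the highest sample of a group lowers that group for each gene, so these counts follow in part from the choice. Leaving out WT replicate 2, Trpc1-/- replicate 1 or Trpc1-/- replicate 3 left 2 genes under 0.05 in each case, Smo and Gli1. The shares of tested genes were 3.26%, 2.83% and 2.17%. Leaving out WT replicate 3 left 3 genes and leaving out WT replicate 4 left 4, against 5.69% and 6.54%. The library names in the labels carry numbers whose meaning the labels do not state. They lie close together for WT replicates 1 and 2 and the 3 Trpc1-/- samples. WT replicates 3 and 4, the WT samples with the most Ihh, have numbers in a higher range. Against WT replicates 1 and 2 alone the logFC of Ihh was -0.09 (SE 0.34, edgeR adjusted p = 0.887). Gli1 was -1.14 (SE 0.29), Smo -0.45 (SE 0.13), Gli3 -0.53 (SE 0.24) and Pthlh -0.51 (SE 0.23) in the same fit. The higher range held WT samples only, so it had no comparison of its own.

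**Figure D3:**
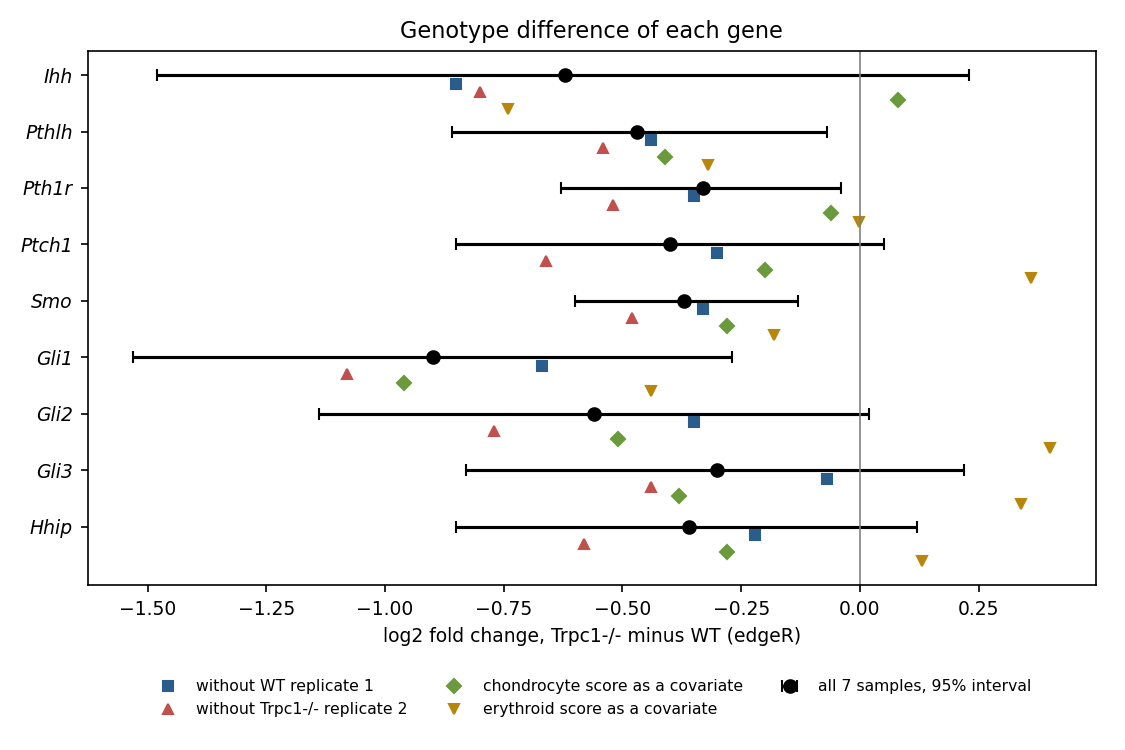
LogFC of each gene (horizontal axis, Trpc1-/- minus WT, edgeR), with black points and bars for all 7 samples and their 95% intervals, and coloured markers for fits without WT replicate 1, without Trpc1-/- replicate 2, or with a marker score as a covariate. All black points lie below 0, from -0.90 for Gli1 to -0.30 for Gli3, and with the erythroid score in the fit 4 of the 9 genes lie above 0.

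The genes that release and receive hedgehog ligand were also lower on average. Of 13 tested genes of that list, 13 had a lower mean, with a median logFC of -0.42, 6 were lower at an unadjusted p under 0.05, and 0 passed edgeR's adjusted threshold. Cdon, a co-receptor that presents ligand to PTCH1, had 103 ± 19.6 CPM in WT and 67.1 ± 8.62 CPM in Trpc1-/- samples, a logFC of -0.61 (SE 0.16, edgeR adjusted p = 0.395), and was the gene of the list that DESeq2 called, at an adjusted p of 0.0355. Gas1, another co-receptor, had 77.7 ± 11.4 and 58.2 ± 2.01 CPM, a logFC of -0.42 (SE 0.12, edgeR adjusted p = 0.401). Scube1, of a family of secreted proteins that help to release lipid-modified hedgehog, had 21.2 ± 4.56 and 13.0 ± 3.18 CPM, a logFC of -0.70 (SE 0.21, edgeR adjusted p = 0.407). In these 3 genes the groups did not overlap. The median of the list was -0.31 without WT replicate 1, with 5 genes lower at that threshold. Without WT replicate 2 or Trpc1-/- replicate 1 the list had 3 genes under 0.05 in either direction. Of the other ligands, Shh had 0 counts in 6 of 7 samples and 2 in Trpc1-/- replicate 3, and Dhh had 9 to 63 counts per sample, so that Ihh was the hedgehog ligand with signal above the filter.

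Genes that act between SMO and the GLI proteins, and those of the primary cilium in which they work, were mixed in direction. In the transduction list 16 of 24 tested genes were lower and 8 higher, with a median logFC of -0.13. Kif7, a cilium-tip kinesin that organizes GLI proteins, had 6.33 ± 1.07 and 4.54 ± 0.974 CPM, a logFC of -0.48 (SE 0.19, edgeR adjusted p = 0.479). Evc2, which couples SMO to the GLI proteins at the cilium base, had a logFC of -0.46 (SE 0.19, edgeR adjusted p = 0.487), and Mgrn1, a ubiquitin ligase, a logFC of -0.16 (SE 0.06, edgeR adjusted p = 0.461). The cilium list had 18 of 26 genes lower and 8 higher, with a median of -0.04. Ift140, an intraflagellar transport subunit, was higher, at 109 ± 11.7 against 87.5 ± 4.60 CPM, a logFC of 0.32 (SE 0.09, edgeR adjusted p = 0.407), while Ift122 and Ift81 had logFC of -0.29 and -0.36. At an unadjusted p under 0.05 by edgeR, 4 transduction genes were lower and 0 higher, and 2 cilium genes were lower and 1 higher. These counts were 6 lower and 2 higher for transduction and 2 lower and 3 higher for the cilium without WT replicate 1. Without WT replicate 2, Trpc1-/- replicate 1 or Trpc1-/- replicate 3, 0 transduction genes were under 0.05, and 1, 2 and 1 cilium genes in turn. Further hedgehog target genes had a median logFC of -0.28, with 13 of 13 lower on average and 1 at an unadjusted p under 0.05, Igfbp6, which binds insulin-like growth factors, at 39.5 ± 6.22 and 28.8 ± 4.20 CPM (logFC -0.46, SE 0.15, edgeR adjusted p = 0.433). The count of target genes under 0.05 was 2 without WT replicate 4, 3 without Trpc1-/- replicate 2 and 0 without Trpc1-/- replicate 3. The cell cycle gene Ccnd1 had a logFC of -0.05 (SE 0.08).

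Downstream of PTH1R the median logFC was -0.03 over 29 tested genes, of which 22 were lower and 7 higher on average and 4 were lower at an unadjusted p under 0.05. Sik1, a salt-inducible kinase that PTHrP signalling inhibits, had 37.0 ± 6.25 and 29.0 ± 0.0525 CPM (logFC -0.35, SE 0.12, edgeR adjusted p = 0.453). Hdac5 and Adcy9, a class IIa histone deacetylase and an adenylyl cyclase, had logFC of -0.17 and -0.27. Gnas, which encodes the G protein that PTH1R activates, had 339 ± 24.9 and 334 ± 10.3 CPM, a logFC of -0.02 (SE 0.09). Pth and Pth2, other ligands of the receptor family, had 0 counts in all samples, and Pth2r had 0 to 4, so Pthlh and Pth1r were the measured pair. The count of genes under 0.05 downstream of PTH1R was 1 without WT replicate 2, 2 without WT replicate 4 and 0 without Trpc1-/- replicate 1 or 3.

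The list of Ihh regulators and their neighbours in the growth plate had 22 of 24 tested genes lower on average, a median logFC of -0.34, and 8 lower at an unadjusted p under 0.05. Fgfr3, the receptor that slows chondrocyte proliferation, had 43.4 ± 1.78 and 27.4 ± 6.55 CPM, a logFC of -0.67 (SE 0.15, edgeR adjusted p = 0.395), and DESeq2 called it at an adjusted p of 0.00623. Bmp2, an inducer of chondrocyte differentiation, had 10.3 ± 0.768 and 6.97 ± 1.40 CPM (logFC -0.57, SE 0.15, edgeR adjusted p = 0.395), and Wnt11 had a logFC of -0.78 (SE 0.22, edgeR adjusted p = 0.404). Runx2, which drives Ihh transcription, had 55.0 ± 14.0 and 47.3 ± 13.8 CPM, a logFC of -0.22 (SE 0.25). Without WT replicate 1 the median was -0.19, with 9 genes lower and 1 higher at that threshold. The count under 0.05 was 5 without WT replicate 2, 3 without Trpc1-/- replicate 1 or 3, and 12 without Trpc1-/- replicate 2. Over all 16429 tested genes, 902 were lower and 741 higher at an unadjusted p under 0.05.

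Chondrocyte markers were lower on average in the Trpc1-/- samples too. Of 15 chondrocyte markers, 15 passed the filter and 15 were lower on average, with a median logFC of -0.46, and 5 were lower at an unadjusted p under 0.05, or 10 without WT replicate 1. Their mean log2 CPM ranged from 7.20 to 7.60 in WT and was 6.69, 7.44 and 6.81 in Trpc1-/- replicates 1 to 3. Replicate 2, the highest Trpc1-/- sample in CPM for each gene of the loop, was thus also the highest Trpc1-/- sample in chondrocyte markers. Resting and proliferating zone markers had a median logFC of -0.47, with 11 of 11 lower on average and 5 lower at an unadjusted p under 0.05, and prehypertrophic and hypertrophic markers a median of -0.26, with 14 of 15 lower and 4 under 0.05. The resting and proliferating list had a median of -0.64 and 9 genes lower at that threshold without WT replicate 1. Its count was 3 without WT replicate 2, 3 or 4 and 2 without Trpc1-/- replicate 3, and that of the hypertrophic list was 8 without Trpc1-/- replicate 2. Col10a1, the collagen of hypertrophic cells next in line to IHH-producing cells, had 655 ± 305 and 417 ± 112 CPM, a logFC of -0.65 (SE 0.37, edgeR adjusted p = 0.557). Loxl4, a matrix cross-linking enzyme, was the hypertrophic marker that DESeq2 called (logFC -0.77, SE 0.18, edgeR adjusted p = 0.395, DESeq2 adjusted p = 0.0138). Smpd3 and Vegfa had logFC of -0.50 and -0.38. Chad, the cartilage protein chondroadherin, was called by DESeq2 among the chondrocyte markers (logFC -0.74, SE 0.16, edgeR adjusted p = 0.395, DESeq2 adjusted p = 0.00267). Their part in the values of the 9 genes was not tested. Set against the chondrocyte score of the same sample, the groups overlapped for all 9 genes, with a difference of -0.01 for Ihh, 0.15 for Pth1r, 0.04 for Pthlh and 0.13 for Smo on the log2 scale. Gli1 kept the largest, -0.39. With that score as a covariate in edgeR, Gli1 had a logFC of -0.96 (SE 0.38) and Ihh 0.08 (SE 0.50). Against the prehypertrophic and hypertrophic score, the differences were -0.22 for Ihh, -0.05 for Pth1r, -0.17 for Pthlh, -0.08 for Smo and -0.60 for Gli1. Against the osteoblast score they were -0.23, -0.06, -0.17, -0.08 and -0.61 in the same order. The groups overlapped there as well.

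Markers of other cells differed between the groups as well. Osteoblast markers, of which 11 of 11 were lower on average, ranged from 7.52 to 7.72 in mean log2 CPM in WT and were 7.11, 7.72 and 7.19 in Trpc1-/- replicates 1 to 3, and 5 of 5 tested osteocyte markers were lower, without overlap of the score, which lay between 5.34 and 5.69 in WT and between 5.06 and 5.30 in Trpc1-/- samples. Erythroid markers went the other way, with 15 of 15 tested genes higher on average, 12 of them at an unadjusted p under 0.05 and 4 called by DESeq2, and with scores of 7.09 to 7.32 in WT and 7.45 to 7.80 in Trpc1-/- samples. Alas2, which starts haem synthesis in red cell precursors, had 526 ± 88.7 and 810 ± 99.5 CPM. With the erythroid score as a covariate the logFC of Gli1 was -0.44 (SE 0.49), that of Smo -0.18 (SE 0.18) and that of Ptch1 0.36 (SE 0.16). In that fit 0 of the 9 genes had an unadjusted p under 0.05 in edgeR, against 1234 of 16429 tested genes in either direction. That score did not overlap between the genotypes. Skeletal muscle markers varied most, from 2.28 to 6.87 in WT, with the highest value in WT replicate 1, and from 4.85 to 6.55 in Trpc1-/- samples. Their part in the result was not tested.

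**Figure D4:**
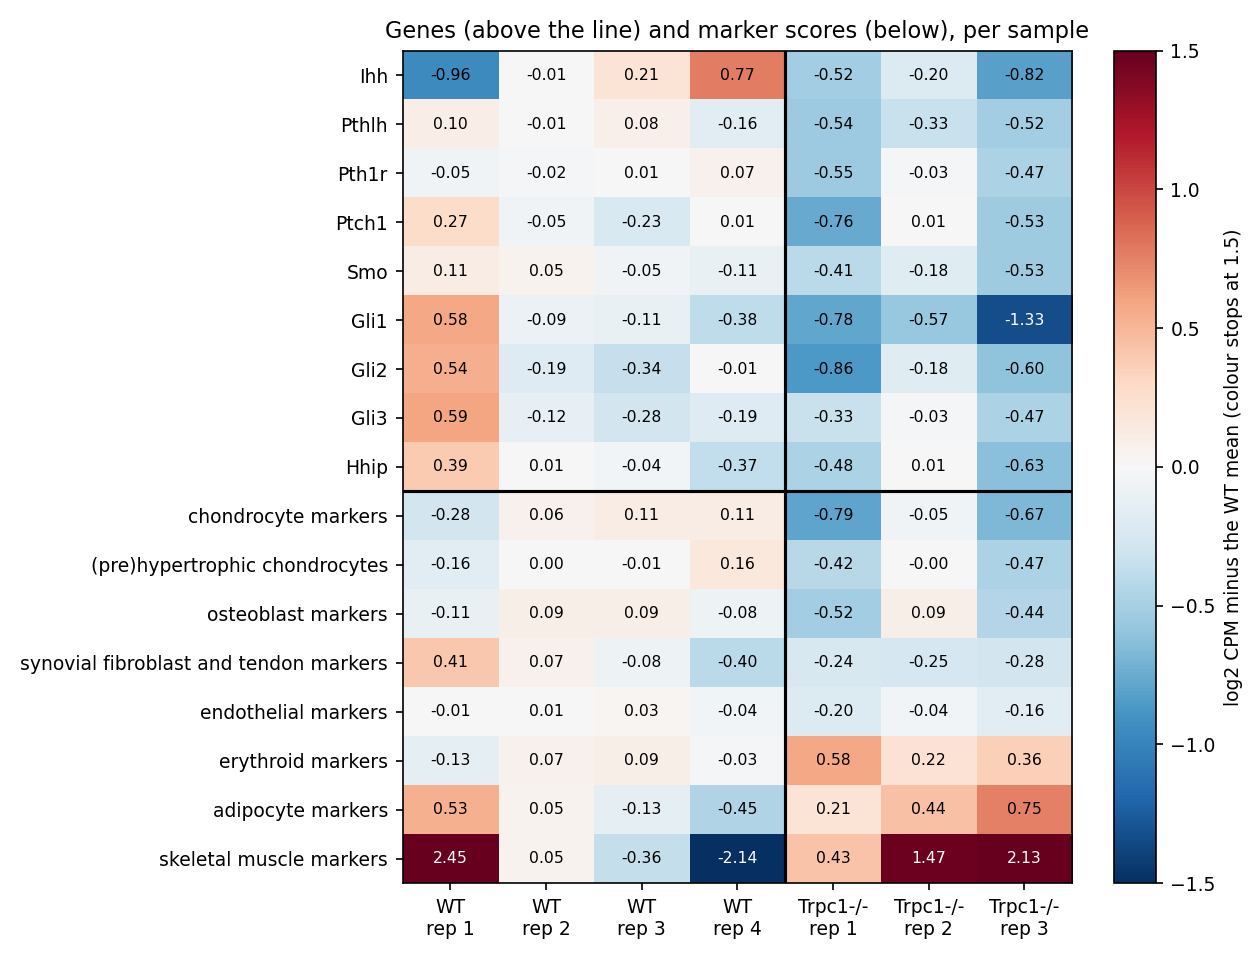
Log2 CPM of each gene (above the line) and mean log2 CPM of each marker list (below it) in each sample, as the difference from the WT mean, printed in each cell and coloured up to 1.5. The columns of Trpc1-/- replicates 1 and 3 are below 0 for all 9 genes and for chondrocyte and osteoblast markers, replicate 2 lies between -0.57 and 0.01 for the 9 genes, and erythroid markers are above 0 in all 3.

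Across the 7 samples, the tested genes most like each gene of the loop were ranked by Pearson's r of log2 CPM, as a description that includes the difference between genotypes and the tissue content the samples share. Ihh was most like Gpr108 (r = 0.986), Sc5d, an enzyme of cholesterol synthesis (r = 0.976), and Scin (r = 0.975). Pthlh was most like Pbxip1 (r = 0.992), Msrb3 (r = 0.983) and Nes (r = 0.981). Pth1r was most like the basement membrane gene Nid2 (r = 0.992), Gm4788 (r = 0.991) and Col9a3, a cartilage collagen (r = 0.989). Genes like Ptch1 were Shfl (r = 0.997) and Crnde (r = 0.992). Smo was most like the zinc transporter Slc39a13 (r = 0.993), Prelp, a matrix protein of cartilage (r = 0.992), and Atxn1l (r = 0.991). Gli1 was most like Arhgef5 (r = 0.993), the zinc transporter Slc39a14 (r = 0.993) and Nacc2 (r = 0.992). Gli2 and Gli3 had different neighbours, Sfi1 (r = 0.998), Spg11 (r = 0.997) and Arhgef7 (r = 0.993) for Gli2 and Abl2 (r = 0.995), Ttc28 (r = 0.995) and Inppl1 (r = 0.994) for Gli3. Hhip was most like Nynrin (r = 0.992), Yipf5 (r = 0.988) and Gxylt2 (r = 0.985). These are among the 3 highest of 16429 coefficients in each case, over 7 samples, and no gene of the loop was among the 3 nearest of another.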

How the data were processed

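RNA-Seq was performed on 7 samples of DMM knees, 4 WT and 3 Trpc1-/-, as grouped by the labels. Per the labels, 300 ng of total RNA per sample was depleted of ribosomal RNA for stranded libraries. The authors trimmed reads with cutadapt 2.5, aligned them to GRCm38 with HISAT2 2.1.0 set for strand, and made the deposited estimated counts per gene from StringTie 2.0.3 coverage, where reads shared between genes were already assigned. The annotation release is not given in the sources used here. The deposited estimated counts were whole numbers, so rounding changed none. The number of sample columns not used was 0.

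In R 4.3.3, genes above 1 CPM in 2 or more samples were normalized by TMM and tested with edgeR 4.0.16 (quasi-likelihood, genotype alone, Benjamini-Hochberg over all 16429 genes, threshold 0.05). Intervals are at 95%. P values measure the spread between these pools. DESeq2 1.42.0, the study's tool, and limma 3.58.1 (voom) were alternatives. So were other normalizations and filters, marker scores, the replicate block, the numbers in the library names, and leaving out each sample. Only edgeR, DESeq2 and limma-voom with genotype alone were run on simulated data first. The limit of 3 counts covers counting error only. TPM and positions used GENCODE M21, whose gene identifiers matched 55141 rows, and served only for comparing genes. Each marker score averages log2 CPM over a list, at a prior count of 1.

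The 9 genes, the gene lists and the tests were chosen with earlier results of these data known. Named from each list were up to 3 genes with the smallest p among those under 0.05 in edgeR or called by DESeq2, otherwise the 2 largest logFC, the 3 genes most like each member, Trpc1 and defining markers. Adrbk1, an older name of Grk2, was listed beside it and counted once. Shh, Gnas, Ccnd1, Runx2 and Dhh were named as pathway genes after their values were seen. Some genes that the rule names are not reported.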

Additional observations from a re-analysis of the deposited data

Results flagged for a closer look

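Within the 4 WT samples, Gli3 was flagged because WT replicate 1, at 21.5 CPM, lay far from the other 3, which had 11.8 to 13.1 CPM: the gap was 0.864 of the group's range, above Dixon's critical value of 0.829. The same test flagged none of the other 8 genes, whose values lay between 0.282 and 0.761, and chance alone flags about 1 in 20 groups.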

How the results depend on the processing

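The sign of the logFC was kept for all 9 genes under DESeq2, limma-voom, RLE, upper quartile or library size scaling, no filter and edgeR's own filter. It was also kept in the fits by library-name number and with each sample left out. EdgeR called 0 of the 9 under every setting. The sign reversed for Ihh with the chondrocyte score as a covariate, to 0.08, and with the erythroid score for Ptch1 (0.36), Gli2 (0.40), Gli3 (0.34) and Hhip (0.13). Called genes numbered 0 in edgeR with all samples, 294 in DESeq2, 1 in limma-voom and 1 with the chondrocyte score, and ranged from 0 to 49 in edgeR when a sample was left out, with 49 reached without WT replicate 1. DESeq2 called 890, 62, 134 and 283 genes without WT replicates 1 to 4 and 79, 367 and 37 without Trpc1-/- replicates 1 to 3. Of the 9 genes DESeq2 called 3 without WT replicate 1 (Ihh, Smo and Gli1) and 1 without WT replicate 4 (Gli1). It called 3 without Trpc1-/- replicate 2 (Pth1r, Ptch1 and Smo), the highest sample of its group for each of the 9 genes in CPM. It called 0 without any other sample. The causes were not tested. With the replicate block on replicates 1 to 3, edgeR called 0 genes, with 975 at an unadjusted p under 0.05 and 2 of the 9 genes among them (Smo and Gli1), and DESeq2, a fit added after seeing the data, called 53 genes and 0 of the 9. Deviations from the group mean had correlations of -0.348, -0.205 and -0.0439 between same-numbered samples. Between differently numbered samples they lay between -0.332 and 0.364. With so few samples these values cannot tell whether equal numbers paired animals. By longest transcript in place of all exons, Smo had 11.4 and Ptch1 5.78 TPM, with the order of the 9 genes unchanged. Depth limits Pthlh most, at 72 to 183 counts per library.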

Other observations

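Other cell types of the joint were read from the remaining marker lists. Synovial fibroblast and tendon markers were lower on average for 8 of 9 genes, with 3 at an unadjusted p under 0.05 by edgeR, among them Thy1, a fibroblast surface protein, at 12.0 ± 2.51 CPM in WT and 7.80 ± 0.692 CPM in Trpc1-/- samples (logFC -0.62, SE 0.18, edgeR adjusted p = 0.407). Endothelial markers were lower for 7 of 8, with 1 at an unadjusted p under 0.05, the receptor Tie1 (logFC -0.32, SE 0.09, edgeR adjusted p = 0.407). Osteoclast markers were mixed, with 5 of 8 lower and 0 at an unadjusted p under 0.05. Adipocyte markers were higher for 7 of 7, and 3 passed an unadjusted p of 0.05. The hormone gene Adipoq was among the calls of DESeq2 (logFC 0.33, SE 0.08, DESeq2 adjusted p = 0.0231). Neutrophil, B cell and skeletal muscle markers were higher on average for 10 of 10, 8 of 8 and 8 of 8 genes, with 0 at an unadjusted p under 0.05 in each list. Without WT replicate 1, 7 of the 8 muscle genes were higher at that threshold, with a median logFC of 2.09 in place of 0.65. The neutrophil median was -0.13 in place of 0.10. In the same fit 3 B cell genes were higher at that threshold. So were 6 of the 7 adipocyte genes, with a median of 0.62 in place of 0.39. Of all 16429 tested genes, 1393 were higher at that threshold in that fit.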
